A study of Mus musculus with 28 samples.

Results

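The levels of 10 immediate-early transcription factor genes were followed across chemotherapy, immune checkpoint blockade (ICB) and their combinations. The genes were taken by name from both count tables, namely Fos, Fosb, Jun, Junb, Egr1, Egr2, Egr3, Atf3, Ier2 and Nr4a1, out of 55315 gene names with estimated counts, and all 10 passed the filter on low counts that left 18499 genes. They were chosen by their log2 CPM across the treatment groups and the spread of that level between these same tumors, so their levels, fold changes and calls are given below as a description of these tumors. Calls come from fits over all genes and are printed beside the share of all genes called. Being chosen on the same tumors, the members' calls are no independent evidence of a change. RNA came from 28 whole AB1-HA mesothelioma tumors, each from a different BALB/c.AusBP mouse, grown under the skin of the right flank. AB1-HA is a transplanted mesothelioma cell line, so a tumor holds malignant cells of 1 line together with host stroma, vessels and leukocytes. Mice were female, 8 to 10 weeks old, and treatment began once tumors could be measured. Controls received PBS (n = 4). ICB mice (n = 5) received 100 µg of anti-CTLA-4 once and 100 µg of anti-PD-L1 in 3 doses. 5-FU mice (n = 5) received 75 mg/kg of 5-FU through the tail vein, and Cisplatin mice (n = 4) received 6 mg/kg of cisplatin into the peritoneum. The 5-FU+ICB group (n = 5) and the Cisplatin+ICB group (n = 5) received both. All tumors were taken on day 7, so these are levels days after the drugs. When the transcripts were induced was not tested.

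Immediate-early genes are switched on within minutes of a stimulus without new protein synthesis. Factors such as SRF, its ETS partners and CREB already sit on the promoters of these genes. The ETS partners are phosphorylated by MAP kinases. FOS and JUN proteins pair through leucine zippers to form AP-1, EGR proteins bind GC-rich sites through zinc fingers, ATF3 is a stress-induced leucine zipper factor and NR4A1 is an orphan nuclear receptor. In tumors the genes are known for their response to growth factors, cytokines, antigen receptor signals and injury, and also for their sensitivity to handling, since cutting and warming of tissue can induce them. Bulk RNA gives 1 level per tumor, in which more cells of a type and more RNA per cell cannot be told apart.

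The libraries held 23501976 to 33894085 estimated counts (median 28741232), so that 3 counts, the floor used here, correspond to at most 0.128 CPM (counts scaled to library size), below every member's level in every tumor. Levels are CPM after TMM scaling over the 28 tumors. The 3 pan-leukocyte markers (Ptprc, Laptm5, Cd52) summed to 306 to 390 CPM in PBS tumors and 983 to 2374 CPM in ICB tumors. The 9 mesothelioma markers summed to 149 to 911 CPM, with 1 to 4 of the 9 at 3 counts or fewer in each tumor. The tumor Cisplatin+ICB 1 stood apart from its group, with the highest mesothelioma sum (911 CPM) and the lowest leukocyte sum of any tumor (281 CPM), and the results of its group, and the correlations over tumors, are given with and without it. The tumor 5-FU+ICB 5 also stood apart, with 16.1% of its counts from mitochondrial genes, against 1.03% to 6.81% in the others, and the highest sums of skeletal muscle (6087 CPM) and endothelial markers (730 CPM) of all 28 tumors. A gene was called in a comparison when edgeR gave a Benjamini-Hochberg adjusted p under 0.05 over all genes and a log2 fold change beyond 0.5 in either direction, which are the study's thresholds.

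RefSeq promoter entries (GRCm38.p6) were found for 7 of the 10 genes. The stretches just before the start sites of Fosb, Nr4a1 and Egr2 are printed because these had the largest fold changes with 5-FU among members with an entry, and that of Fos because its proportion to Fosb is described below. Capitals mark the cyclic AMP response element half-site TGACG on either strand (CGTCA on the lower one) in all 4, the EGR site GCGGGGGCG on either strand in Fosb and Nr4a1, a CArG box (the SRF site) in Egr2 and the TATA box TATAAA, searched on the printed strand, in Fos. The windows run 5′ to 3′ at chr12:85473640-85473889 (+) for Fos, chr7:19310052-19310295 (-) for Fosb, chr10:67537619-67537868 (+) for Egr2 and chr15:101266596-101266845 (+) for Nr4a1. Egr2 had 5 entries, and the one shown is the first of the 3 with the most matches to TGACG and the CArG box. Of the 5, 3 held TGACG, 4 held the CArG box and 1 held no motif searched here. None of the windows overlaps a GENCODE M21 exon, and 6 bases of exon next to the start were left off the Fosb window.
Fos: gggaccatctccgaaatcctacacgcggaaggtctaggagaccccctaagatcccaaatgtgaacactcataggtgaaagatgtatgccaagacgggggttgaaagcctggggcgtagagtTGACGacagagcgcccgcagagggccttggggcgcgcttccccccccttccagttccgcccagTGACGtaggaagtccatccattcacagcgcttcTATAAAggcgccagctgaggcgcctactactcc
Fosb: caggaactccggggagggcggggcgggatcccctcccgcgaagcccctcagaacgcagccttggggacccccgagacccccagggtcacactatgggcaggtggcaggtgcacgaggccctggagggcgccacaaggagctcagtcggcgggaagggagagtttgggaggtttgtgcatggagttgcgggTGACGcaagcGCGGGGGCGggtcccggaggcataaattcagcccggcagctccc
Egr2: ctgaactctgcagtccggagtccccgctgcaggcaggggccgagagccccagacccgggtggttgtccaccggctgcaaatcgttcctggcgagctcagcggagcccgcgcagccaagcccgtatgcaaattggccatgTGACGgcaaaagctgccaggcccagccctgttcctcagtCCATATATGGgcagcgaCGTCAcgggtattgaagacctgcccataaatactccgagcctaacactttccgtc
Nr4a1: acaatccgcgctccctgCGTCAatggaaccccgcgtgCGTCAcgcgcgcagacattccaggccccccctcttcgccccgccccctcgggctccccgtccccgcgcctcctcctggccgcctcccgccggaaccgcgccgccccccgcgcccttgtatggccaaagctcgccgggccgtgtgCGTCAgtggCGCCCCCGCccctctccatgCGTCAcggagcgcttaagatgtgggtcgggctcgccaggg

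The half-site TGACG began 129 and 66 bases before the start of Fos, 60 before that of Fosb, 111 and 55 before that of Egr2, and 233, 213, 69 and 40 before that of Nr4a1. It was present in 17.8% of 32851 mouse promoter windows of 250 bases. The CArG box of Egr2 began 72 bases before the start, against 1.47% of windows with one. The EGR site began 50 bases before the start of Fosb and 60 bases before that of Nr4a1 and was held by 2.57% of windows. The TATA box of Fos began 33 bases before the start (7.59% of windows). The AP-1 site TGANTCA, searched on both strands and present in 6.75% of windows, was in no window of the 7 members. Junb and Atf3 also carried a TGACG, 106 and 7 bases before their starts, and the Jun window carried none. These matches describe letters and do not show binding.

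In PBS tumors the 10 genes spanned a wide range of levels. Scaled to length, as median CPM per kb of exon, Junb (46.3) and Jun (44.8) were highest, followed by Ier2 (30.2), Egr1 (26.4) and Fos (15.4). Nr4a1 (3.86), Atf3 (2.40), Egr2 (1.80), Fosb (1.35) and Egr3 (0.948) formed a low class. In 5-FU tumors Fosb moved from the ninth place to the second, with a median of 94.0 CPM per kb against 95.2 for Junb. The 5-FU group had the highest median of the 6 groups for every one of the 10 genes, while the order of the other groups differed from gene to gene, and in no gene did any group stand wholly apart from the next one in that order.

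**Figure D1:**
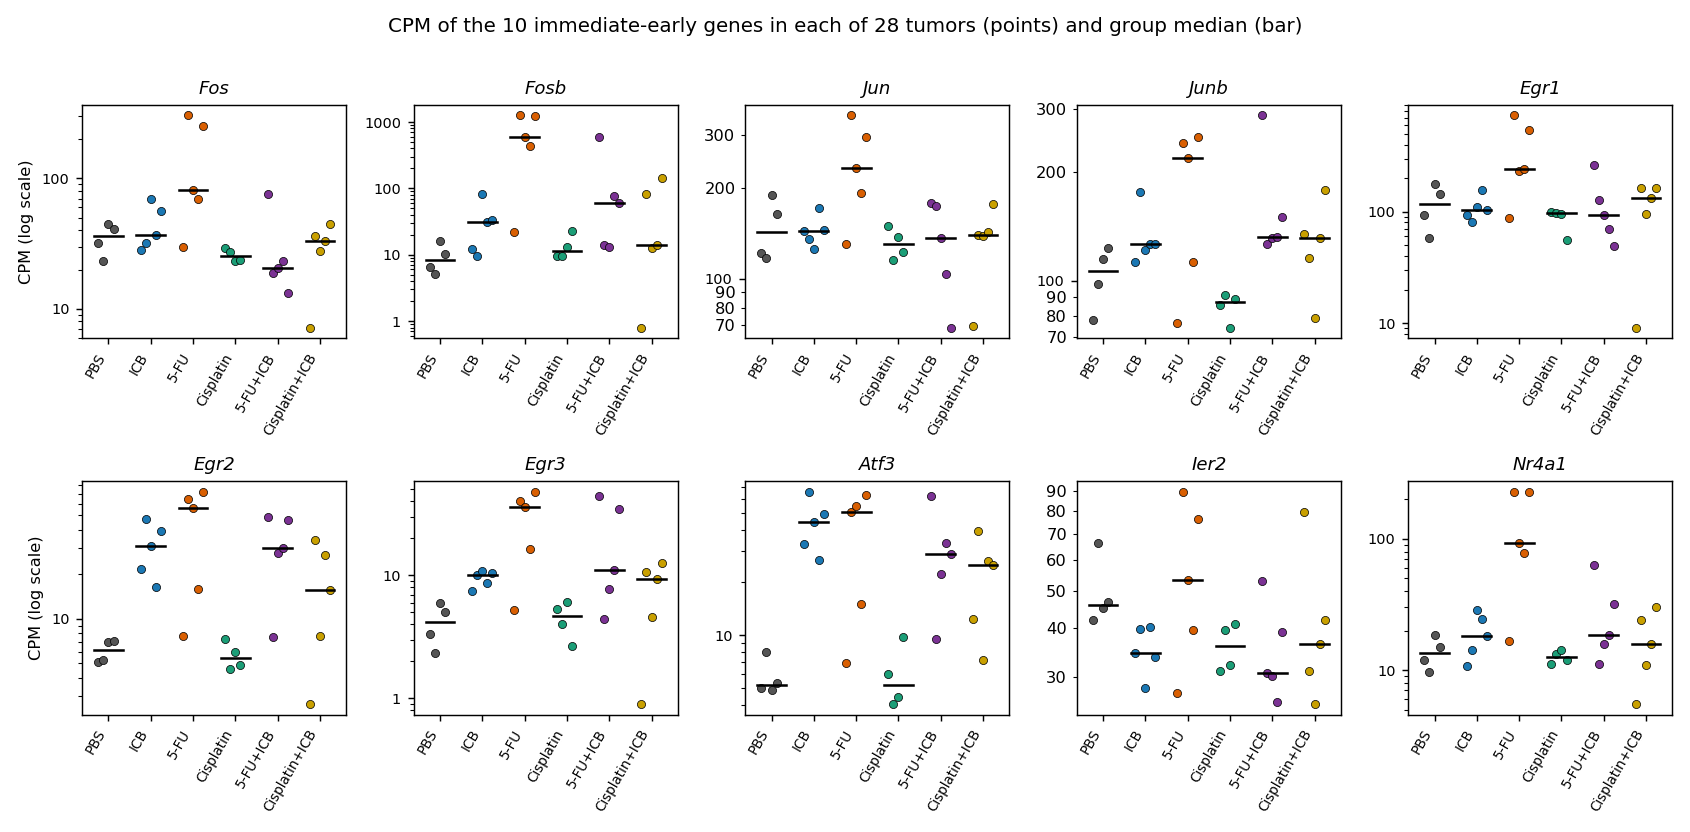
CPM on log axes of the 10 genes in each of 28 tumors, 1 point per tumor and a bar at the group median. Fosb reached 1263 CPM in a 5-FU tumor while PBS tumors lay between 5.06 and 16.0, and in most panels 1 of the 5 5-FU points sits with the PBS tumors.

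Of the 10 genes Fosb had the largest fold change with 5-FU. Fosb (chr7, 19302696 to 19310051, minus strand, GENCODE M21 on GRCm38) encodes a FOS protein that pairs with JUN partners and, as a shorter splice form, accumulates after repeated stimulation. Its levels in PBS tumors 1 to 4 were 6.58, 5.06, 16.0 and 10.3 CPM. In 5-FU tumors 1 to 5 they were 21.8, 1263, 587, 434 and 1239.7 CPM, so that every 5-FU tumor lay above every PBS tumor, 1 by little and 4 by more than the whole PBS range. The group means were 709 ± 536 CPM with 5-FU and 9.50 ± 4.89 CPM with PBS (SD, n = 5 and 4). The fitted log2 difference was 6.27 ± 1.33 (SE). Without 5-FU 1 the mean of the other 4 was 881 ± 432 CPM (SD, n = 4) and the log2 fold change 6.58 ± 1.20 (SE). The gene counts do not separate splice forms.

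Fos (chr12, 85473890 to 85477273, plus strand), the founding partner of AP-1, was less spread than Fosb over PBS tumors and over all 5-FU tumors. Without 5-FU 1 it was the more spread with 5-FU, over 4.39-fold against 2.91-fold for Fosb. PBS tumors held 31.9, 23.1, 44.4 and 40.7 CPM. 5-FU tumors held 29.7, 305, 82.3, 69.6 and 251 CPM, 4 of them above all PBS tumors and 5-FU 1 among them. The log2 fold change was 2.11 ± 0.61 (SE), and it was 2.37 ± 0.55 without 5-FU 1. The call was lost when PBS 1 (2.08), PBS 2 (1.97) or 5-FU 5 (1.82) was left out.

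Fosb and Fos did not keep a fixed proportion. Per kb of exon, the ratio of Fosb to Fos was 0.0777 to 0.136 in the 4 PBS tumors, so Fos was the more abundant by far. In 5-FU tumors 1 to 5 the ratio was 0.277, 1.56, 2.69, 2.35 and 1.86. It exceeded 1 in 8 of the 28 tumors, of which 4 were 5-FU, 3 were 5-FU+ICB (2.97, 1.24 and 1.71) and 1 was Cisplatin+ICB (1.20). No PBS, ICB or Cisplatin tumor passed 0.453. By this measure Fos was the more abundant in every PBS, ICB and Cisplatin tumor, in 4 of 5 Cisplatin+ICB tumors and in 5-FU 1. The 5-FU+ICB tumors fell on both sides of equality. The split at 1 depends on the exon lengths used, 2.352 kb for Fos and 6.243 kb for Fosb. Without that scaling, Fosb also exceeded Fos in ICB 3 (83.1 against 69.2 CPM) and Cisplatin+ICB 2 (81.0 against 36.4 CPM).

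**Figure D2:**
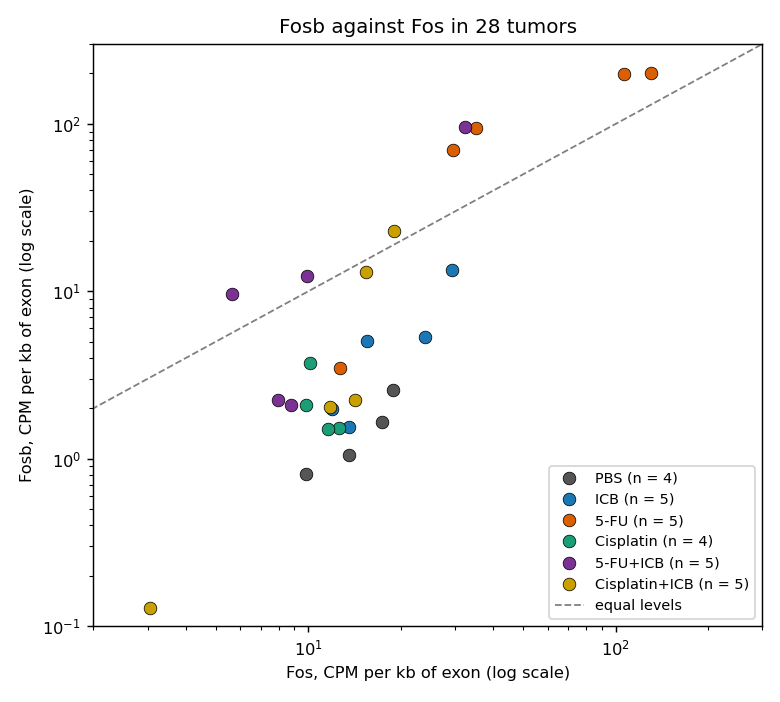
Fosb against Fos in CPM per kb of exon, both axes logarithmic, 1 point per tumor colored by group, with a dashed line at equal levels. The 8 points above the line are 4 5-FU, 3 5-FU+ICB and 1 Cisplatin+ICB tumors, and the lowest point is Cisplatin+ICB 1 at a ratio of 0.0419.

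The fold changes of Jun and Junb with 5-FU were smaller than those of Fosb and Fos. Jun (chr4, 95049034 to 95052222, minus strand), the DNA-binding partner of FOS in AP-1, stood at 121, 117, 189 and 164 CPM in PBS tumors and at 130.2, 349, 234, 193 and 297 CPM in 5-FU tumors. Of the 5-FU values, 4 of 5 lay above the PBS range, the nearest only just. The log2 fold change was 0.72 ± 0.27 (SE) and was not called, although it was called without PBS 3 (0.82) or without 5-FU 1 (0.88). Junb (chr8, 84974484 to 84978718, minus strand), a JUN protein that often opposes Jun in growth control, stood at 78.1, 98.1, 115 and 124 CPM with PBS and 76.4, 241, 219, 113 and 250.0 CPM with 5-FU. Here 3 5-FU tumors lay above the PBS range, 1 within it and 5-FU 1 just below it. Its log2 fold change of 0.82 ± 0.32 (SE) was not called, but was called without 5-FU 1 (1.01) or 5-FU 4 (0.95).

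The EGR family separated by level. Egr1 (chr18, 34859823 to 34864984, plus strand), a zinc finger factor induced by serum and growth factors, was the abundant member, with 93.6, 58.6, 178 and 143 CPM in PBS tumors. With 5-FU it stood at 88.3, 734, 229.9, 244 and 544 CPM. Again 4 of 5 5-FU tumors lay above the PBS tumors. The log2 fold change of 1.68 ± 0.53 (SE) was called, and the call was lost without PBS 1 (1.60), PBS 2 (1.47), 5-FU 2 (1.27) or 5-FU 5 (1.49).

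Egr2 (chr10, 67535475 to 67542188, plus strand) and Egr3 (chr14, 70077203 to 70082614, plus strand) are known in T cells as targets of antigen receptor signals that restrain activation, and Egr2 also in myeloid cells and Schwann cells. Egr2 was at 5.12, 5.30, 6.91 and 7.05 CPM in PBS tumors, a narrow range. In 5-FU tumors it was at 7.60, 64.7, 56.2, 15.8 and 72.5 CPM, all above PBS, 5-FU 1 by a small margin. Egr3 was at 3.33, 2.34, 5.94 and 5.02 CPM with PBS and 5.21, 40.4, 35.9, 16.5 and 48.1 CPM with 5-FU, where 5-FU 1 overlapped the PBS tumors. The log2 fold changes were 2.85 ± 0.62 (SE) for Egr2 and 2.85 ± 0.66 (SE) for Egr3, and both were called with any 1 tumor left out.

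Atf3 (chr1, 191170296 to 191218039, minus strand) encodes a leucine zipper factor of the stress response that also curbs inflammatory genes. It was at 5.00, 8.05, 4.89 and 5.36 CPM in PBS tumors and 6.94, 50.2, 54.4, 15.02 and 62.7 CPM in 5-FU tumors, with 5-FU 1 inside the PBS range. The log2 fold change was 2.70 ± 0.60 (SE). Nr4a1 (chr15, 101254269 to 101274795, plus strand) encodes an orphan nuclear receptor that antigen receptor signals induce in T cells. It was at 12.03, 9.75, 18.6 and 15.04 CPM with PBS and 16.8, 226, 92.4, 77.7 and 229 CPM with 5-FU, with a log2 fold change of 3.24 ± 0.64 (SE). Again 5-FU 1 lay within the PBS range and the other 4 far above it, and both calls were kept with any 1 tumor left out.

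Ier2 (chr8, 84661331 to 84662852, minus strand), a small nuclear protein of the immediate-early response, had the smallest fold change of the 10 with 5-FU. It was at 42.0, 66.4, 44.99 and 46.9 CPM in PBS tumors and 27.2, 89.8, 53.3, 39.7 and 76.2 CPM in 5-FU tumors, spread on both sides of the controls, with a log2 fold change of 0.20 ± 0.29 (SE). In ICB tumors it was at 34.5, 39.7, 28.0, 40.2 and 33.7 CPM, and in Cisplatin tumors at 31.1, 39.7, 32.2 and 40.9 CPM. Every ICB and every Cisplatin tumor thus lay below every PBS tumor, as did 21.6% of all genes for ICB and 1.91% for Cisplatin. Its log2 fold changes of -0.49 ± 0.29 (ICB) and -0.47 ± 0.28 (Cisplatin, both SE) were not called.

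Across the 10 genes, 7 were called higher in 5-FU than in PBS tumors and none lower, where 9.99% of 17894 genes were called higher and 13% lower. The members' median log2 fold change was 2.40 against -0.01 over all genes, and all 10 were above 0. DESeq2's Wald test called 9 members, and 4804 of 35513 genes (13.5%) in either direction. With 1 tumor left out edgeR called 5 to 9 members, while its share of all genes called higher went from 3.43% (without PBS 1) to 10.5% (without PBS 3). The groups did not overlap for 2 members, Fosb and Egr2, against 9.28% of all genes that lay wholly higher. These counts describe the tumors the genes were chosen in.

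**Figure D3:**
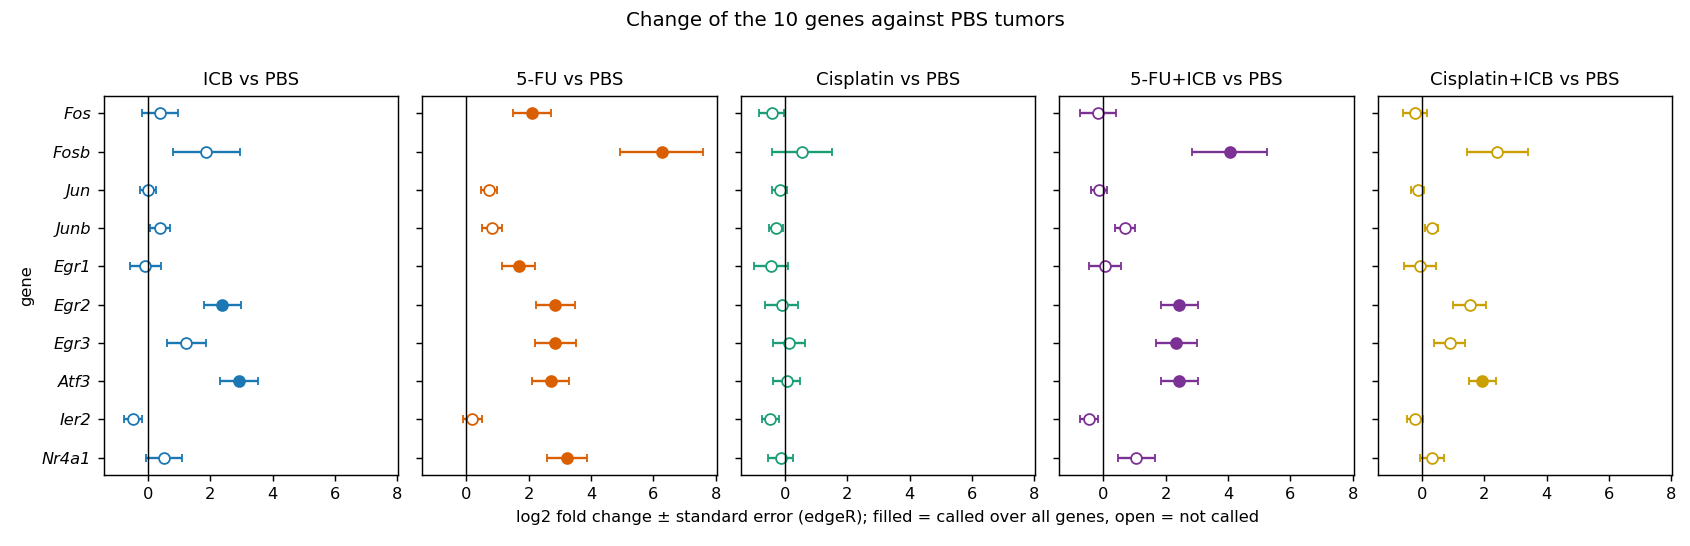
log2 fold change with its standard error from edgeR for the 10 genes, 1 panel per treatment group against PBS, filled where called over all genes and open where not. The filled points number 7 for 5-FU, 2 for ICB, 4 for 5-FU+ICB, 1 for Cisplatin+ICB and 0 for Cisplatin.

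With ICB alone, Atf3 and Egr2 were the members called. Atf3 was at 33.2, 65.9, 44.0, 26.6 and 49.2 CPM and Egr2 at 21.7, 47.5, 30.9, 16.4 and 39.2 CPM, in both cases with all 5 ICB tumors above all 4 PBS tumors. The log2 fold changes were 2.93 ± 0.60 (SE) for Atf3 and 2.39 ± 0.60 (SE) for Egr2. Thus 2 members were called higher and 0 lower, and both calls were kept with any 1 tumor left out (19% of all genes were called higher with ICB and 18.8% lower). The T cell markers (6 of 6, median log2 fold change 3.70) and macrophage markers (5 of 5, 1.76) were called higher in the same comparison, and their part in the members' levels was not tested. Egr3, at 7.48, 10.1, 10.8, 8.61 and 10.6 CPM, also lay wholly above PBS, so that 3 of 10 members did, against 15.8% of genes, but its log2 fold change of 1.24 ± 0.62 (SE) was not called. Fosb was uneven, at 12.4, 9.67, 83.1, 31.6 and 33.3 CPM, and 3 of the 5 tumors exceeded the PBS range (1.88 ± 1.08, SE). Jun (0.00 ± 0.27), Egr1 (-0.08 ± 0.51) and Fos (0.38 ± 0.57, all SE) lay within their standard errors of no change.

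With 5-FU+ICB, 4 members were called higher than with PBS and none lower, where 21.9% of all genes were called higher and 18.7% lower. Egr2 stood at 49.1, 7.58, 27.6, 30.2 and 46.7 CPM and Atf3 at 62.0, 9.44, 22.2, 33.5 and 29.1 CPM, every tumor above every PBS tumor. Their log2 fold changes were both 2.44, with standard errors of 0.60 for Egr2 and 0.59 for Atf3. Egr3 was at 44.4, 4.41, 7.76, 11.2 and 34.7 CPM (2.34 ± 0.65, SE). Fosb was at 601, 14.0, 13.1, 76.6 and 60.3 CPM (4.05 ± 1.19, SE), and without 5-FU+ICB 1 its log2 fold change was 2.20 ± 0.91 (SE) and no longer called. Junb was the third member whose tumors all lay above PBS (287, 127, 131, 132 and 150.1 CPM, a log2 fold change of 0.70 ± 0.32, SE, not called), against 10.9% of all genes. Markers of T cells (6 of 6, median log2 fold change 4.55), endothelium (5 of 6, 1.53), B cells (3 of 4, 5.85) and macrophages (3 of 5, 1.62) were also called higher with 5-FU+ICB, and their part was not tested.

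Fos, Jun and Egr1 were not called in this comparison. In 5-FU+ICB tumors Fos was at 76.1, 18.7, 20.6, 23.4 and 13.3 CPM, 3 tumors below the PBS range and 1 above it. Egr1 was at 263, 126, 92.7, 70.1 and 49.1 CPM and Jun at 179, 174, 136, 103 and 68.6 CPM. Their log2 fold changes against PBS were -0.17 ± 0.57 for Fos, 0.06 ± 0.51 for Egr1 and -0.14 ± 0.26 for Jun (SE). These rested on 5-FU+ICB 1, without which they were -0.83 ± 0.53, -0.44 ± 0.48 and -0.26 ± 0.27 (SE). The tumor 5-FU+ICB 1 held the highest level of its group for all 10 genes, and 5-FU+ICB 5 the lowest for Fos, Jun and Egr1.

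Set directly against 5-FU, all 10 genes were lower on average in 5-FU+ICB tumors, and none was called, where 2 of 17894 genes (0.0112%) were. At an unadjusted p under 0.05 the count was 6 of the 10 members and 2978 of all genes, and DESeq2 called 4 and 492. The largest differences were -2.28 ± 0.56 for Fos, -2.22 ± 1.00 for Fosb, -2.19 ± 0.56 for Nr4a1 and -1.62 ± 0.49 for Egr1 (log2, SE), while Atf3 (-0.27 ± 0.51) and Junb (-0.11 ± 0.30) were within 1 standard error of 0. Without 5-FU+ICB 1, Fosb came first with -4.07 ± 0.96, followed by Fos (-2.94 ± 0.55) and Nr4a1 (-2.71 ± 0.57, log2, SE), again with no call (0% of genes). For Fos, the groups overlapped through 5-FU+ICB 1 (76.1 CPM), which lay above 5-FU 1 (29.7 CPM) and 5-FU 4 (69.6 CPM), while the other 4 5-FU+ICB tumors, up to 23.4 CPM, lay below every 5-FU tumor. Fos was called lower without 5-FU 3 (-2.43) or 5-FU+ICB 2 (-2.14), Nr4a1 likewise without those tumors (-2.28 and -1.98), and Jun without 5-FU+ICB 2 (-0.96), where 0.202% and 2.83% of all genes were called lower.

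The change with 5-FU in the presence of ICB was set against that in its absence as the interaction term, 5-FU+ICB against ICB minus 5-FU against PBS. It rests on the levels by which the genes were chosen and is a description too. It was below 0 for all 10 genes, with a median of -2.20, and called for none of them, where 16 genes in all (0.0894%) were called. At an unadjusted p under 0.05 it counted 7 members and 4277 genes, and DESeq2 called 5 and 1494. The values were -4.09 ± 1.47 for Fosb, -3.19 ± 0.77 for Atf3, -2.80 ± 0.79 for Egr2, -2.69 ± 0.81 for Nr4a1 and -2.65 ± 0.81 for Fos (log2, SE). Atf3 was called without PBS 3 (-3.09), PBS 4 (-3.14) or 5-FU+ICB 4 (-3.24), and Egr2 without PBS 3 (-2.83), where 2.74%, 1.36% and 1.9% of all genes were called below 0 without those 3 tumors in turn. Against ICB alone, 5-FU+ICB tumors differed in no called member (0.229% of genes were called, 1 member and 1946 genes had an unadjusted p under 0.05, and DESeq2 called 0 members). Relative to ICB, the differences ran from -0.55 ± 0.54 for Fos to 2.17 ± 1.00 for Fosb, with Egr3 at 1.11 ± 0.57, Egr2 at 0.05 ± 0.52 and Atf3 at -0.49 ± 0.51 (log2, SE). Without 5-FU+ICB 1 Fosb was at 0.32 ± 0.82, Egr3 at 0.63 ± 0.56 and Fos at -1.21 ± 0.51 (SE).

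Cisplatin alone left the 10 genes close to the controls. Fosb was at 9.51, 9.43, 13.1 and 23.2 CPM, Egr2 at 7.29, 4.54, 5.98 and 4.87 CPM and Atf3 at 5.98, 4.05, 4.43 and 9.70 CPM. Fos was at 29.5, 27.3, 23.1 and 23.9 CPM and Nr4a1 at 11.1, 13.2, 14.2 and 11.9 CPM, both inside the PBS range. The log2 fold changes ran from -0.47 to 0.54 and none was called, as was the case for all 17798 genes (0%). At an unadjusted p under 0.05 there were 0 members and 317 genes, and DESeq2 called 0 members and 4 genes.

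Cisplatin+ICB tumors were uneven. Atf3, at 12.4, 39.3, 7.23, 26.4 and 25.2 CPM, was the 1 member called higher than in PBS tumors (1.94 ± 0.43, SE), where 4.69% of genes were called higher and 1.41% lower. That call was lost with the 2 groups fitted alone and in 5 of 9 fits with 1 tumor left out, those without PBS 1 (1.87), PBS 3 (1.86), PBS 4 (1.89), Cisplatin+ICB 2 (1.63) or Cisplatin+ICB 4 (1.87). Over all genes 0% were called without PBS 1, PBS 3 or PBS 4, and 1.24% and 1.33% were called higher without the other two. No member lay wholly above PBS (3.43% of genes did). The T cell marker sum was 21.0 to 349 CPM with Cisplatin+ICB and 22.8 to 30.7 CPM with PBS. The neutrophil sum was 35.3 to 108 CPM against 9.34 to 18.5 CPM, and the mesothelioma sum 234 to 911 CPM against 336 to 482 CPM. The part of these cells in the members' levels was not tested. The tumor Cisplatin+ICB 1 was below all PBS tumors for 7 of the 10 genes, with Fosb at 0.797 CPM and Egr1 at 9.08 CPM, and above them for Junb, Atf3 and Ier2. The other 4 tumors held Fosb at 81.0, 12.7, 14.0 and 143 CPM and Egr1 at 164, 95.9, 132 and 164 CPM. Without Cisplatin+ICB 1, Fosb (2.84), Egr2 (1.89) and Egr3 (1.28) were called as well, against 2.42 ± 0.97, 1.53 ± 0.52 and 0.90 ± 0.50 (SE) with it, and Egr2 also without Cisplatin+ICB 3 (1.72). In the other direction, Fosb was at 1.53 and Egr3 at 0.64 without Cisplatin+ICB 5, and Egr2 at 1.14 without Cisplatin+ICB 2. Over all genes, the share called higher was 18.2% without Cisplatin+ICB 1 and 6.47% without Cisplatin+ICB 3.

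Against Cisplatin alone, Cisplatin+ICB gave log2 differences above 0 for all 10 genes and no call (0% of genes, with 3 members and 2526 genes at an unadjusted p under 0.05 and 2 members and 765 genes called by DESeq2). Without Cisplatin+ICB 1, Atf3 (2.08), Egr2 (1.97) and Egr3 (1.12) were called higher, as were 8.32% of all genes. Atf3 was called without Cisplatin+ICB 3 too (2.11), with 2.33% of genes. Against ICB alone it gave no call (0% of genes, 1 member and 2829 genes at an unadjusted p under 0.05, 0 members and 56 genes by DESeq2), and Atf3 was -0.98 ± 0.38 (log2, SE).

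The 2 drugs were compared directly over the 6 groups joined. Fos (5-FU from 29.7 CPM upward, Cisplatin up to 29.5 CPM), Egr2 (from 7.60, up to 7.29) and Nr4a1 (from 16.8, up to 14.2) lay wholly higher with 5-FU, against 5.29% of genes, although for Fos and Egr2 the gap was under 0.5 CPM. Of the members, 3 were called higher and 0 lower, where 0.0919% of 18499 genes were called higher and 0.27% lower: Nr4a1 (3.35 ± 0.62), Egr2 (2.93 ± 0.65) and Atf3 (2.64 ± 0.58, log2, SE). Fosb (5.68 ± 1.36), Egr3 (2.68 ± 0.68) and Fos (2.51 ± 0.59) were not called. Without the filter on low counts 1 member was called. Egr2 and Atf3 lost the call in 7 of 9 fits with 1 tumor left out and Nr4a1 in 4 of 9, while without 5-FU 1 Fosb (6.00), Fos (2.77), Egr3 (2.95) and Junb (1.27) were called too, with 0.217% of all genes called higher.

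The level of a tumor could be followed in 1 number, the mean log2 CPM of the 10 genes. It was 6.52 ± 1.23 in 5-FU, 5.43 ± 0.83 in 5-FU+ICB, 5.38 ± 0.25 in ICB, 4.87 ± 1.02 in Cisplatin+ICB, 4.53 ± 0.32 in PBS and 4.42 ± 0.06 in Cisplatin tumors (SD, n = 5, 5, 5, 5, 4 and 4). Each group overlapped the next in this order. Without Cisplatin+ICB 1 the Cisplatin+ICB mean was 5.26 ± 0.58 (SD, n = 4). Without 5-FU+ICB 5 the 5-FU+ICB mean was 5.43 ± 0.95 (SD, n = 4). Without 5-FU+ICB 1 it was 5.09 ± 0.37 (SD, n = 4), below the ICB mean. Without 5-FU 1 the 5-FU mean was 7.00 ± 0.71 (SD, n = 4). With the median over the 10 genes in place of the mean, ICB (5.34) lay above 5-FU+ICB (5.04). Among 5-FU tumors 1 to 5 the value was 4.61, 7.58, 6.81, 6.08 and 7.54, so 5-FU 1 sat inside the PBS range of 4.23 to 4.88 and the other 4 above it. Counting genes, 5-FU tumors 1 to 5 had 2, 10, 9, 8 and 10 members above all PBS tumors, and 5-FU+ICB tumors 8, 3, 4, 5 and 6. ICB tumors had 3, 4, 6, 6 and 6, Cisplatin+ICB tumors 3, 5, 1, 4 and 7, and Cisplatin tumors 1, 0, 1 and 2. Members below all PBS tumors numbered 2, 0, 0, 1 and 0 in 5-FU and 0, 2, 2, 2 and 4 in 5-FU+ICB tumors. They numbered 1 in each ICB tumor, 7, 1, 1, 1 and 1 in Cisplatin+ICB and 1, 4, 3 and 3 in Cisplatin tumors. Shares of all genes were not counted per tumor.

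**Figure D4:**
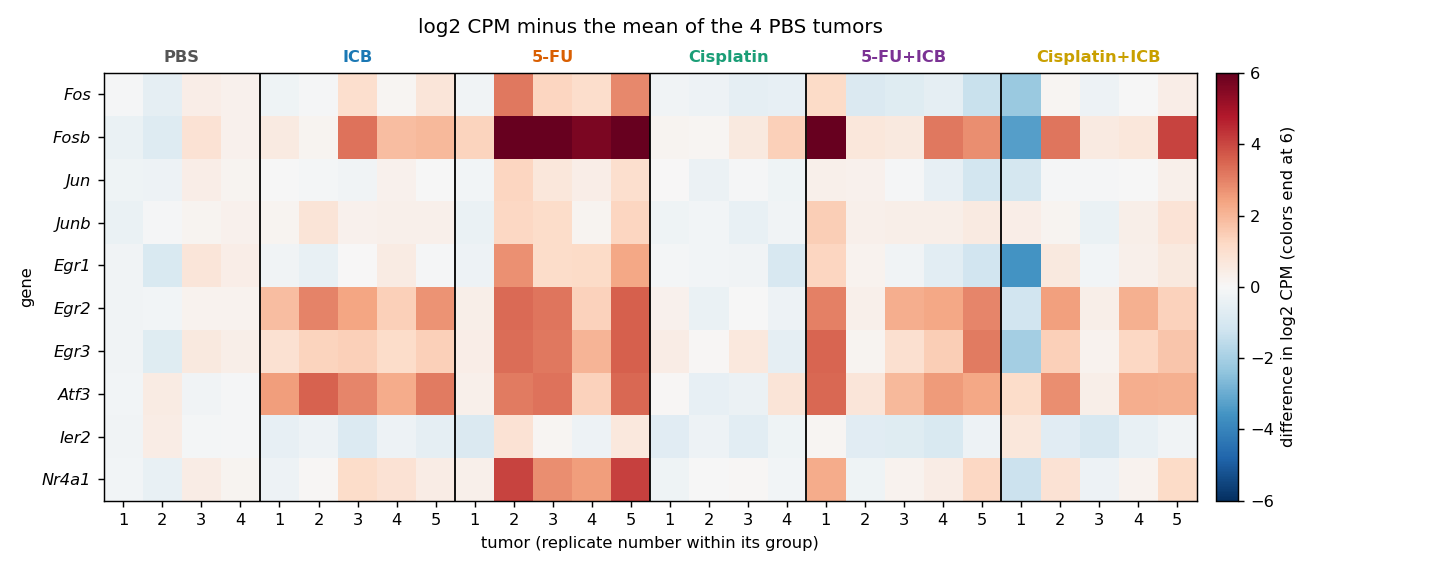
log2 CPM of each gene (rows) in each of 28 tumors (columns, by group and replicate number) minus the mean of the 4 PBS tumors, from blue (lower) to red (higher), with colors ending at 6. 5-FU tumors 2 to 5 and 5-FU+ICB 1 are red in most rows, and 5-FU 1 is pale. ICB tumors are red mainly in the Egr2, Egr3 and Atf3 rows, and ICB 3, ICB 4 and ICB 5 also in the Fosb row.

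The genes also differed in their spread between tumors of 1 group. In the 5-FU group all 10 had a standard deviation of log2 CPM above that of the median gene (0.33), with a median of 1.35 over the members, and Fosb (2.41) exceeded 99.5% of genes. These values rested largely on 5-FU 1. Among the other 4 tumors all 10 were still above the median gene (0.34), but the members' median was 0.80 and Fosb, at 0.78, exceeded 83.1% of genes. In 5-FU+ICB the count was 9 of 10 and in Cisplatin+ICB 7 of 10, with Fosb again widest at 2.25 and 2.88. Leaving out 5-FU+ICB 1 gave 7 of 10 in that group and 1.35 for Fosb, where the median gene was at 0.52. The Cisplatin+ICB count was 9 of 10 and the Fosb value 1.77 without Cisplatin+ICB 1, where the median gene was at 0.26. It was 6 of 10 for ICB, 5 for PBS and 4 for Cisplatin, where the members' median of 0.25 lay below the 0.34 of the median gene. Fosb ran over 57.8-fold from the lowest to the highest 5-FU tumor and 3.17-fold over PBS tumors, while Jun ran over 2.68-fold and 1.61-fold. Without 5-FU 1 the ranges with 5-FU were 2.91-fold for Fosb, under that of PBS tumors, and 1.81-fold for Jun.

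Over the 28 tumors the 45 pairs of members had Pearson correlations of log2 CPM from 0.09 to 0.95 with a median of 0.68. Taken as deviations from the group means, which removes the differences between groups, they ran from -0.02 to 0.92 with a median of 0.68. The points share treatment, library and tumor composition, and the values are a description. Fosb and Nr4a1 were the closest pair (0.95), followed by Jun with Egr1 (0.92) and Egr2 with Atf3 (0.91). Without Cisplatin+ICB 1 the pairs ran from 0.24 to 0.95 (median 0.65) over the other 27 tumors and from 0.26 to 0.92 (median 0.71) as deviations, and Egr2 with Atf3 was then the closest pair over tumors. Leaving out 5-FU 1 instead gave 0.06 to 0.95 (median 0.69) over tumors and -0.25 to 0.90 (median 0.56) as deviations. Nr4a1 followed the mean of the other 9 most closely (0.94) and Ier2 least (0.34). Ier2 came nearest to Junb (0.56 over tumors, 0.76 as deviations), and its correlation with Egr1 as deviations was -0.02. Without Cisplatin+ICB 1 the lowest of all pairs as deviations was 0.26.

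**Figure D5:**
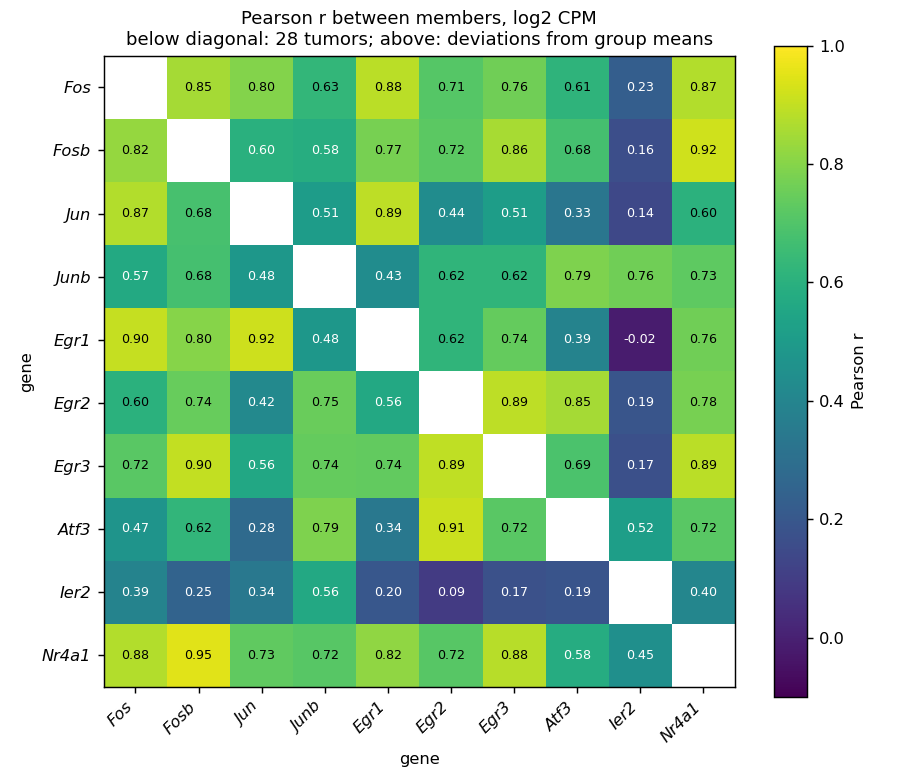
Pearson r of log2 CPM between the 10 genes, over 28 tumors below the diagonal and as deviations from group means above it. The Ier2 row and column are the darkest, which marks low r, and Fosb with Nr4a1 (0.95 and 0.92) is the brightest pair.

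Of 13304 other genes with a mean count of at least 50, the 10 whose log2 CPM followed the mean of the members' z-scores most closely over the 28 tumors were Trib1 (r = 0.95), Klf4 (0.93), Dusp1 (0.90), Ccn1 (0.90), Nfkbiz (0.90), Slc25a25 (0.89), Zfp36 (0.88), Sgk1 (0.88), Smad7 (0.87) and Nr4a2 (0.87). As deviations from the group means the list began with Trib1 (0.95), Zfp36 (0.92), Nfkbiz (0.91), Klf4 (0.91) and Socs3 (0.90), and went on with Csrnp1, Slc25a25, Nr4a3, Ppp1r15b and Tnfaip3. In all, 5 genes were in both lists. Of the first list 8 genes, and of the second all 10, were again among the closest 10 without Cisplatin+ICB 1. Trib1 encodes a pseudokinase, Dusp1 a phosphatase that switches MAP kinases off, and Zfp36 a protein that promotes decay of AU-rich messenger RNAs. Of these, 7 of the first 10 and 8 of the other 10 belonged to the lists of related genes described next.

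Around the 10 members, 85 related genes were gathered in 4 lists, chosen with earlier results of these tumors known: 15 other members of the same families, 35 other immediate-early genes, 19 feedback regulators such as dual-specificity phosphatases, and 16 upstream kinases and factors. In 5-FU tumors 27 of the 83 tested were called higher and 3 lower than in PBS. They were 4 higher and 1 lower of 14 family members (median log2 fold change 0.66), 12 and 1 of 34 immediate-early genes (0.43), 8 and 0 of 19 feedback regulators (0.71) and 3 and 1 of 16 upstream genes (-0.04), beside 9.99% and 13% of all genes and a median of -0.01. Heat shock genes, a list of stress genes of another pathway, were called higher in 4 and lower in 1 of 13.

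The largest of these changes with 5-FU was in Nr4a3, a sister receptor of Nr4a1. Nr4a3 rose by 3.90 ± 0.77 on the log2 scale (SE, edgeR adjusted p = 0.00466), with means of 41.9 ± 28.2 CPM in 5-FU and 2.87 ± 1.16 CPM in PBS tumors (SD, n = 5 and 4). Nr4a2, the other sister receptor, rose by 2.25 ± 0.48 (edgeR adjusted p = 0.00603), the Krüppel-like factor gene Klf4 by 2.64 ± 0.53 (0.00483), the nuclear IκB gene Nfkbiz by 2.51 ± 0.52 (0.00544) and Zfp36 by 2.23 ± 0.47 (0.00584). Jdp2, a leucine zipper repressor of AP-1, fell by 1.17 ± 0.27 on the log2 scale (edgeR adjusted p = 0.00879), from 100.0 ± 9.33 CPM to 44.4 ± 9.81 CPM (SD, n = 4 and 5). These 6 calls were kept with any 1 tumor left out. Klf10 fell by 0.58 ± 0.14 (edgeR adjusted p = 0.0106, 8 of 9 fits) and Mapk8, which encodes the JUN kinase JNK1, by 0.62 ± 0.20 (0.0301, 5 of 9 fits).

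With ICB, 29 of 83 related genes were called higher and 5 lower, beside 19% and 18.8% of all genes. Values below are log2 fold changes against PBS with their standard error, followed in parentheses by the edgeR adjusted p. Nr4a3 rose by 2.93 ± 0.74 (SE, edgeR adjusted p = 0.00527), and the leucine zipper genes Batf2 and Batf3, which act in interferon responses and dendritic cells, by 2.78 ± 0.28 (1.63e-05) and 2.55 ± 0.69 (0.00772). The feedback genes Dusp2 and Tnfaip3 rose by 2.06 ± 0.57 (0.00913) and 2.04 ± 0.40 (0.00124). Plk2 and Mapk8 fell by 1.16 ± 0.26 (0.00271) and 0.90 ± 0.20 (0.00235), and these 7 calls were kept in 9 of 9 fits with 1 tumor left out. Areg (-1.39 ± 0.52, 0.0405), Myc (-0.79 ± 0.26, 0.0217) and Ier5l (-0.77 ± 0.25, 0.0221) fell too, but kept the call in 2, 7 and 5 of 9 fits.

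With 5-FU+ICB, 34 of 83 were called higher and 8 lower, beside 21.9% and 18.7% of all genes. Each gene is given with its log2 fold change ± SE and its edgeR adjusted p. Nr4a3 (3.77 ± 0.77, edgeR adjusted p = 0.00165), Dusp2 (2.44 ± 0.58, 0.00379), Batf3 (2.40 ± 0.69, 0.0102), Batf2 (2.30 ± 0.28, 5.83e-05) and Batf (2.11 ± 0.61, 0.0109) rose most. Spry4 (-1.45 ± 0.48, 0.0212), Jdp2 (-1.33 ± 0.27, 0.00178), Mapk8 (-0.95 ± 0.20, 0.00183), Hbegf (-0.94 ± 0.35, 0.0395) and Plk2 (-0.86 ± 0.26, 0.0145) fell most, with Hbegf called in 2 and Spry4 in 8 of 9 fits with 1 tumor left out. With Cisplatin+ICB, 3 were called higher and 2 lower, beside 4.69% and 1.41% of all genes. Without Cisplatin+ICB 1 the counts were 27 and 4, beside 18.2% and 17.1% of all genes, and without Cisplatin+ICB 3 they were 14 and 2, beside 6.47% and 2.44%. With all tumors the 5 genes were Batf2 (1.97 ± 0.50, 0.0301), Pim1 (1.39 ± 0.35, 0.0298), Nfkbiz (1.24 ± 0.32, 0.033), Jdp2 (-0.82 ± 0.16, 0.0121) and Plk2 (-0.67 ± 0.17, 0.0342), and all but Jdp2 (6 of 9) kept the call in 2 of 9 fits. Between 5-FU and Cisplatin tumors, Ccn1 (2.09 ± 0.39, 0.0199) and Nfkbiz (2.26 ± 0.50, 0.0423) were called higher of 84 tested, in 4 and 2 of 9 fits. In the remaining comparisons edgeR called 0 of the 83. At an unadjusted p under 0.05 there were 2 for Cisplatin against PBS, 9 for 5-FU+ICB and 8 for Cisplatin+ICB against ICB, 13 for 5-FU+ICB against 5-FU and 22 for Cisplatin+ICB against Cisplatin. DESeq2 called 4 and 9 in the last 2 comparisons and 0 in the others.

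The members' level was set beside several signs of tumor composition. Over the 28 tumors the mean log2 CPM of the 10 genes had a correlation of -0.66 with the mesothelioma marker sum, 0.58 with the 6 endothelial markers, 0.55 with the 6 T cell markers, 0.51 with the leukocyte markers, 0.51 with the 5 macrophage markers, 0.48 with the 6 fibroblast markers and 0.33 with the share of mitochondrial counts. Without 5-FU+ICB 5 the last value was 0.65 and the endothelial one 0.69, and without Cisplatin+ICB 1 the mesothelioma and fibroblast values were -0.58 and 0.36. As deviations from the group means, T cell and leukocyte markers had 0.63 each (0.53 and 0.51 without Cisplatin+ICB 1), endothelial markers 0.50, macrophage markers 0.47, mesothelioma markers -0.53 (-0.29 without that tumor) and fibroblast markers 0.27 (0.00091 without it). Correlations with skeletal muscle markers (0.20), heat shock genes (-0.15) and library size (-0.28) were weaker. The other marker lists had -0.36 (erythroid, -0.22 without Cisplatin+ICB 1), 0.29 (B cell), 0.27 (neutrophil), 0.20 (adipocyte) and 0.05 (keratinocyte). As deviations, neutrophil markers had 0.42 and erythroid markers 0.07 (0.37 without Cisplatin+ICB 1). The fibroblast sum was 10479 to 16207 CPM in 5-FU and 3925 to 9308 CPM in PBS tumors, without overlap, and the mesothelioma sum was 175 to 281 CPM against 336 to 482 CPM. That sum was mostly Msln (mean 108 CPM with 5-FU, 312 CPM with PBS) and Pdpn (109 and 81.2 CPM), and of the 6 markers tested 3 had a log2 fold change above 0, 1 was called higher (Wt1, at 1.26 CPM or less) and none lower. Of the 6 T cell markers, 4 were called higher with 5-FU, with a median log2 fold change of 2.36 over the list. Within the 5-FU group, 5-FU 1, the lowest tumor for the members, had an endothelial sum of 147 CPM, the lowest of the 5 (153, 332, 162 and 228 CPM in 5-FU 2 to 5). Its T cell sum was 59.7 CPM against 80.8, 394, 34.3 and 132 CPM, its macrophage sum 1495 CPM against 1616, 4701, 1430.1 and 2436 CPM, and its leukocyte sum 516 CPM against 558, 1640.4, 425 and 897 CPM. In these 3 lists 5-FU 4 was lower than 5-FU 1, while its members stood higher. Fibroblast (12872 CPM) and muscle sums (1424 CPM) of 5-FU 1 lay inside the range of the other 4. 5-FU+ICB 1, the highest of its group for the members, had 2249 CPM of leukocyte markers in a group running from 472 to 3161 CPM. The part of composition, of handling time and of RNA quality in the members' levels was not tested.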

How the data were processed

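Whole tumors were sequenced as 100-base single-end reads, and the authors deposited estimated counts per gene from kallisto (version 0.46.0 per the labels, GRCm38/mm10), summed to genes with tximport, in 2 tables, 1 per drug, with the 9 control and ICB-only tumors in both. Among table entries, 23.4% and 23.8% were not whole, and they were rounded here. The 26 gene names that had turned into dates (0.181% of counts) were left out. The members and gene lists were chosen with earlier results of these data known.

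edgeR (version 4.0.16, quasi-likelihood test, filterByExpr, TMM) was fitted to each table (17894 and 17798 genes) and, for 5-FU against Cisplatin and for levels, to the joined table (18499 genes, prior count of 2 for log2 CPM). Adjustment was Benjamini-Hochberg over all genes of a fit. Fits were tested on simulated counts. PBS and ICB tumors serve several comparisons, so those are not independent. Named beside the members are, per comparison and direction, the 5 called list genes with the largest fold change and a mean count of at least 50, and the 10 genes most like the members over tumors. Kilobases of exon are merged GENCODE M21 exons, not effective lengths. Alternatives were DESeq2 (version 1.42.0), its size factors, no filter, the replicate number as a block, the compared groups alone, no fold threshold, the other table for ICB, a prior count of 0.5, the median over members, each tumor left out and, added after seeing the data, 6 groups joined and the members' mean, spread and correlations without Cisplatin+ICB 1, 5-FU+ICB 5, 5-FU+ICB 1 or 5-FU 1.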

Additional observations from a re-analysis of the deposited data

Results flagged for a closer look

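Among 66 sets of 1 gene or the members' mean in 1 group, 7 had a tumor far from the others of its group, measured as its gap to the nearest tumor over the range of log2 CPM. Chance gives about 1 in 20 sets of unselected, independent values. These genes were chosen for their spread and share the same tumors, so their number is not read against that share. Cisplatin+ICB 1 was the lowest of its group for Fos (0.735), Jun (0.738) and Egr1 (0.815). 5-FU 1 was the lowest of its group for Fosb (0.736), at 21.8 CPM against at least 434 CPM in the other 4. Cisplatin 4 was the lowest for Egr1 (0.938), at 56.0 CPM against at least 95.3 CPM. Junb was highest in ICB 2 (0.74), at 177 CPM against at most 127 CPM, and in 5-FU+ICB 1 (0.794), at 287 CPM against at most 150.1 CPM. What set these tumors apart was not tested.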

How the results depend on the processing

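Replicate numbers did not pair the tumors, since in no comparison did every pair of same-numbered tumors deviate together with a correlation over 0.1. With the replicate number as a block, 2 members were called for ICB, 5 for 5-FU and 3 for 5-FU+ICB, all against PBS. The shares of all genes called were 33.7%, 18.6% and 35.8% in that order. For Cisplatin+ICB against PBS there were 0 members (1 without the block) and 1 related gene, beside 0.534% of all genes. For 5-FU against Cisplatin there were 0 members (3 without the block) and 0 related genes, beside 0.027% of all genes. With the 2 compared groups alone, 4 members were called for ICB against PBS, beside 40.4% of all genes. For Cisplatin+ICB against PBS there were 0 members and 0 related genes, beside 0% of all genes. For 5-FU against Cisplatin there were 7 members and 19 related genes, beside 5.65% of all genes. DESeq2 called 4 members and 4 related genes for 5-FU+ICB against 5-FU, 3 and 20 for Cisplatin+ICB against PBS, 2 and 9 for Cisplatin+ICB against Cisplatin, and 9 and 17 for 5-FU against Cisplatin. The shares of all genes that DESeq2 called were 1.39%, 6.08%, 2.16% and 1.82% in that order. Without the filter, 5-FU against Cisplatin had 1 called member and 1 related gene, beside 0.0682% of all genes. Cisplatin+ICB against PBS had 3 related genes without the filter and 8 with DESeq2's size factors, beside 1.76% and 6.23% of all genes. With 6 groups joined, chosen after seeing the data, related genes were 18 for 5-FU and 2 for Cisplatin+ICB against PBS. The median over members in place of the mean put Cisplatin tumors at 4.30 instead of 4.42, 5-FU+ICB tumors at 5.04 instead of 5.43 and Cisplatin+ICB tumors at 4.56 instead of 4.87, so that ICB tumors (5.34) came above 5-FU+ICB. The cause of these shifts was not tested. No fold change of a member changed sign against its called value.

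Leaving out 1 tumor at a time gave 2 to 2 called members and 23 to 33 related genes for ICB, 5 to 9 and 17 to 31 for 5-FU, 3 to 4 and 31 to 46 for 5-FU+ICB, 0 to 4 and 0 to 31 for Cisplatin+ICB, all against PBS. Over all genes, calls for 5-FU against PBS ran from 1434 (without PBS 2) to 4739 (without PBS 3). The share of all genes called ran from 28.4% (without PBS 2) to 39.8% (without ICB 4) for ICB against PBS. For 5-FU+ICB against PBS it ran from 30.6% (without PBS 2) to 48.8% (without 5-FU+ICB 2). The highest Cisplatin+ICB counts came without Cisplatin+ICB 1, when 6270 of 17751 genes were called. The ranges were 0 to 3 and 0 to 8 for 5-FU+ICB against 5-FU, 0 to 3 and 0 to 20 for Cisplatin+ICB against Cisplatin, 0 to 7 and 0 to 9 for 5-FU against Cisplatin, 0 to 2 members for the interaction, and 0 to 0 in the other comparisons. Over all genes, 4111 calls for 5-FU against PBS became 2461 without the filter and 824 with 6 groups joined. The 1086 of Cisplatin+ICB against PBS became 2151 (DESeq2), 622 (no filter), 95 (block) and 0 (groups alone), and the 67 of 5-FU against Cisplatin 668, 25, 5 and 948. Groups of 4 or 5 tumors limit these fold changes, most where 1 tumor lay apart from the rest. Every member exceeded the floor of 3 counts in every tumor.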
